A study of Mus musculus with 7 samples.

Results

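The clustered histone genes of the mouse were followed in 7 samples of C2C12 cells, an established line of mouse myoblasts, with 1 Affymetrix whole transcript array per sample. The members are probe sets in which every gene on the platform's annotation carries an older symbol beginning with Hist1h, Hist2h, Hist3h or Hist4h. The annotation itself uses the newer symbols (H1f5 for Hist1h1b), so 0 probe sets met this rule by their printed symbol, and it was applied through the older symbols that RefSeq lists for each gene. Of 33649 probe sets on the array 70 were members, and together they matched 69 of the 70 genes that carry such a symbol. By the class in the older symbol, 5 probe sets belonged to H1, 20 to H2A, 18 to H2B, 12 to H3 and 14 to H4, and 1 matched both H1f4 and H2B genes. Of the 69 genes, 55 lie in the Hist1 cluster on chromosome 13, 10 in Hist2 on chromosome 3, 3 in Hist3 on chromosome 11 and 1 (H4f16) in Hist4 on chromosome 6.

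Histones H2A, H2B, H3 and H4 form the protein core around which DNA is wound in a nucleosome, and H1 binds the linker DNA between nucleosomes. Most of the clustered genes are replication-dependent. Their mRNAs are made mainly in S phase and end in a stem-loop rather than a poly(A) tail. The protein Slbp binds the stem-loop, and Npat drives transcription of these genes. The members also include the testis-type H1f6 and H2ac1. H2af-ps2 and H2bu1-ps, named as pseudogenes, are counted too. G9a (gene Ehmt2) and GLP (gene Ehmt1), the enzymes targeted in this study, methylate lysine 9 of histone H3, so the H3 genes encode the substrate of both.

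Members are closely related in sequence, and this sets what each probe set can show. Only 32 probe sets matched 1 gene, the other 38 matched several (up to 13), and no H3 gene had a probe set of its own. There were 3 pairs of probe sets with identical values on every array, leaving 67 distinct rows. A signal from a probe set that matches several genes is therefore a signal of the group and cannot be assigned to 1 of them.

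Cells of all 3 groups grew in medium with 15% serum and received siRNA with the Hi-Perfect transfection reagent, at 0.2 µmol for each 100 mm dish. The groups were a control siRNA (2 arrays), an siRNA against G9a (siG9a, 3 arrays) and an siRNA against GLP (siGLP, 2 arrays). The labels do not say how long after transfection RNA was taken or whether samples came from separate cultures, so the p-values reflect only how far these samples differ from each other, and that spread may be technical. Values are log2 signals on the deposited scale, and a fold is 2 raised to the difference of group means.

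Promoters of the clustered genes are shown first because the classes differ in them. Windows of 300 bases (250 before and 50 after each start, RefSeq, GRCm38.p6) were given for 62 of the 69 genes, 63 windows in all, and 20 of the 63 share bases with another histone window, as H2A and H2B genes are often transcribed away from a common promoter. Printed here are the 250 bases before the start, 5′ to 3′ on the gene's strand, for 1 gene per class with high signal (H1f5, H2ac10, H2bc12, H3c10 and H4c12, of which H3c10 is read only together with 3 other H3 genes) and for the H1 and H2B genes with the smallest p-values in the comparisons below (H1f1 and H2bc9). Capitals mark matches of 4 motifs on either strand. They are the TATA box, searched as TATAAA, and the CCAAT box, which NF-Y binds. The other motifs are the octamer ATTTGCAT, a site of Oct1, and AAACACA, a box known from H1 promoters.
H1f5 (chr13:21780626-21780875, minus strand): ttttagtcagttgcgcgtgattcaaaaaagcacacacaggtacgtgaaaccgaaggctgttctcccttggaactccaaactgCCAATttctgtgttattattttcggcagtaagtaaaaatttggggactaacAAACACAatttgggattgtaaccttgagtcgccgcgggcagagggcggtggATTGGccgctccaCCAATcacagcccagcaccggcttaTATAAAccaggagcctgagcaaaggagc
H1f1 (chr13:23763418-23763667, plus strand): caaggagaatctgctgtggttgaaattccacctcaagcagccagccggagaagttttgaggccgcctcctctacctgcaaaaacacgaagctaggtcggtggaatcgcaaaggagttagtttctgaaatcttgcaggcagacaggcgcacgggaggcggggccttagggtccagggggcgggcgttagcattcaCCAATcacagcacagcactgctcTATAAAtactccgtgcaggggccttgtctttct
H2ac10 (chr13:23533625-23533874, plus strand): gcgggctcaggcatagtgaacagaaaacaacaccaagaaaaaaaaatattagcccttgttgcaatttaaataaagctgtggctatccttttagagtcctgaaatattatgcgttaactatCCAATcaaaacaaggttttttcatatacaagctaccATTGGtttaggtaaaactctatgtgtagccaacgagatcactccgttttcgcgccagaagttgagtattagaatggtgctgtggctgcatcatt
H2bc12 (chr13:22035571-22035820, plus strand): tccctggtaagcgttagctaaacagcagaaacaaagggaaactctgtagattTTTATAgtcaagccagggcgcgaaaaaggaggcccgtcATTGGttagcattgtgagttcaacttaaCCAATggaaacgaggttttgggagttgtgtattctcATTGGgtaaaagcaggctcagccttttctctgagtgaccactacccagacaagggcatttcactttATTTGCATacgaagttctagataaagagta
H2bc9 (chr13:23543445-23543694, minus strand): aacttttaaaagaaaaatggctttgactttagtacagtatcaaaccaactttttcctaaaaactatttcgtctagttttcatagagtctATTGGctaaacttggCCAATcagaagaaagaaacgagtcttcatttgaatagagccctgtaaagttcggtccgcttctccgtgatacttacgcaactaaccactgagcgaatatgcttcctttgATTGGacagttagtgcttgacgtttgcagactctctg
H3c10 (chr13:21717378-21717627, plus strand): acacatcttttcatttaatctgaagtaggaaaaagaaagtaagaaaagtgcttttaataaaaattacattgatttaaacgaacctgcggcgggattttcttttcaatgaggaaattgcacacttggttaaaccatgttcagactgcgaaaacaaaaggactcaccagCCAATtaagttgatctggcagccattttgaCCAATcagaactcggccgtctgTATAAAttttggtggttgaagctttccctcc
H4c12 (chr13:21750554-21750803, minus strand): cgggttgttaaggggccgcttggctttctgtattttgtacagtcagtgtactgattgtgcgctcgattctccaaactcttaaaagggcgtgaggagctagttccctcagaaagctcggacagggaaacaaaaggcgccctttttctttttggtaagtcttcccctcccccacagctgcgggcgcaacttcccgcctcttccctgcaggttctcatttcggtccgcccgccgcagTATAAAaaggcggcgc
In these windows the promoter of H1f5 holds a TATA box, 3 CCAAT matches and the H1 box, whereas H1f1 holds a TATA box and 1 CCAAT match with no AAACACA. The H2bc12 window holds the octamer close to its start, and H4c12 holds a TATA box with no CCAAT match.

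Counted over all 63 windows, CCAAT was present in 54 (85.7%), against 37.4% of 32851 promoter windows of all genes. All 6 H1, 18 H2A, 17 H2B and 10 H3 windows held it, but 3 of 12 H4 windows (25%). The octamer occurred in 14 windows (22.2%, against 1.74% of all promoters), 7 of H2A and 7 of H2B genes, and in 0 windows of the other classes. The TATA box was found in 35 (55.6%, against 13.6%), from 40% of H3 windows to 66.7% of H1 and of H4 windows. AAACACA was found in 9 (14.3%, against 7.18%), 5 of them among the 6 H1 windows. No match of 1 motif overlapped a match of another. These counts describe letters in the windows and are no evidence that a factor binds there.

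Array medians lay between 4.54 and 4.59. The siRNA targets were lower in their own groups: Ehmt2 read 7.56 and 7.46 on the control arrays and 6.31, 6.14 and 5.99 on the siG9a arrays (38.8% of control, limma adjusted p = 0.0679 over all 33649 probe sets), and Ehmt1 read 6.71 and 6.73 on the control arrays and 5.73 and 6.13 on the siGLP arrays (58.0%, adjusted p = 0.26). All 8 measured myoblast markers had a mean signal above the median of all probe sets and 6 were above its upper quartile. Of 8 measured myotube markers 6 were above the median and 1 was above the upper quartile. Of the other cell types, 0 of 4 endothelial, 1 of 4 adipocyte and 1 of 3 leukocyte markers were above the median, as were 2 of 4 fibroblast markers. The adipocyte gene Fabp4 read 6.32 on array siGLP 1 and 3.18 to 4.40 on the other arrays. Of the myoblast markers 5 of 8 were below control in siG9a and 6 in siGLP, and 0 passed the test. Myod1 differed by -0.68 in siG9a and -0.0025 in siGLP, and Cdh15 by -0.51 in each. Of the myotube markers 4 of 8 were below control in siG9a and 5 in siGLP, and 0 passed the test. Mymk, with the smallest p of that list in both, differed by -0.29 in siG9a and -0.71 in siGLP.

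No histone probe set passed the test in any comparison. With limma's test and Benjamini-Hochberg adjustment over all probe sets, 0 of 70 members passed an adjusted p of 0.05 in siG9a versus control, 0 in siGLP versus control and 0 in siGLP versus siG9a. Over all probe sets the passing shares were 0%, 0.00892% (3 probe sets) and 0.0475% (16). At an unadjusted p under 0.05 there were 6, 5 and 1 members, which is 8.57%, 7.14% and 1.43% of the 70, beside 8.95%, 7.63% and 10.7% of all probe sets. The smallest adjusted p among members was 0.342, 0.294 and 0.249 in the same order. Members divided almost evenly around no difference, with 34 of 70 below 0 in siG9a (49.2% of all probe sets), 37 in siGLP (49.5%) and 30 in siGLP versus siG9a (50.6%). Their median log2 differences were 0.0035, -0.0090 and 0.017, against 0.0018, 0.0002 and -0.0013 for all probe sets. Among members whose arrays did not overlap with those of control, 3 were higher and 14 lower in siG9a (12.6% and 11% of all probe sets) and 6 higher and 14 lower in siGLP (16.5% each way). Between the knockdowns 4 were higher and 3 lower in siGLP (11.5% and 13%). Both knockdown comparisons use the same 2 control arrays, so their values are not independent of each other.

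**Figure D1:**
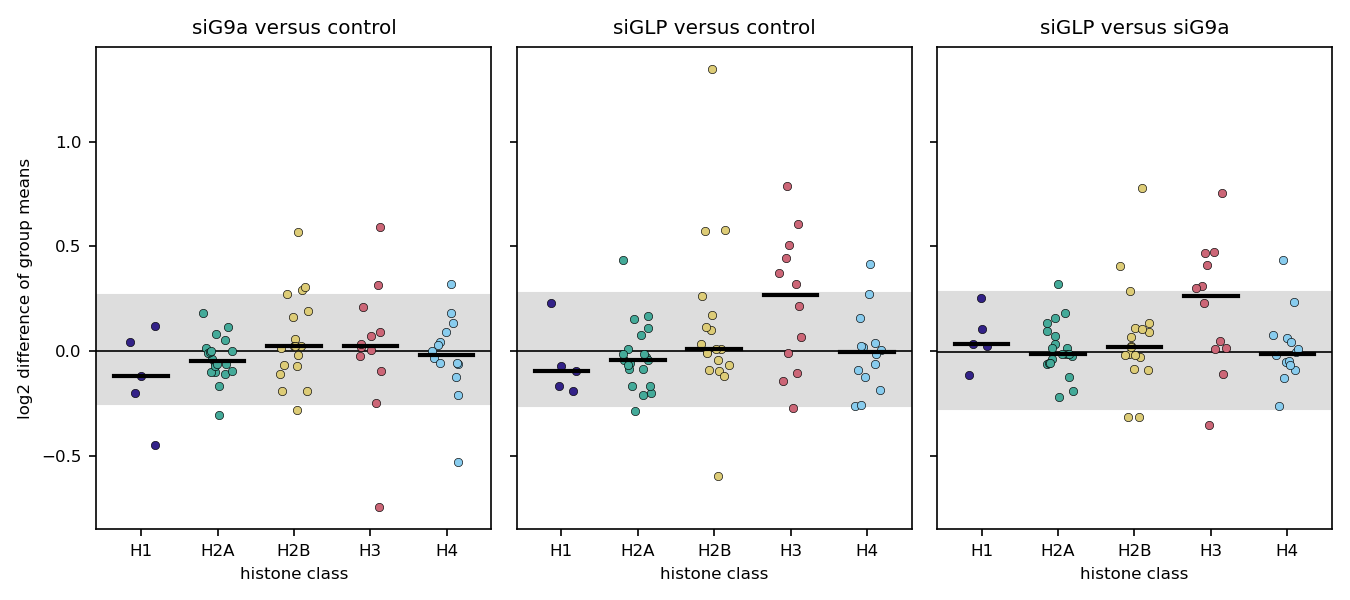
Log2 difference of group means (y axis) for each histone probe set (points) by class (x axis), in the 3 comparisons; thick bars are class medians and the grey band holds the range from the 5th to the 95th percentile of all probe sets. Most points lie within the band, and the H3 medians of 0.27 against both control and siG9a stand above the other classes.

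Members with a mean signal above the upper quartile of all probe sets (6.86) were 26 in number, and more of them lay below control than above it. In siG9a 16 of 26 differences were below 0 (49% of all probe sets this bright), with a median of -0.064. In siGLP 19 of 26 were below 0 (53.6%), with a median of -0.079. Every siGLP array lay below both control arrays in 10 of the 26, against 24.1% of equally bright probe sets, and above both in 0 (20%). For siG9a the counts were 9 lower (19.7%) and 1 higher (20.7%). None of the 26 passed the test, and they include 2 of the pairs with identical values. With any 1 array left out, a check added after the values were seen, 16 to 21 of 26 were below control in siG9a and 18 to 21 in siGLP. The siGLP median was -0.045 without control 1 and -0.052 without siGLP 1. Cd68, the leukocyte marker above the median level, read 7.06 and 7.22 in control, 7.82, 7.67 and 7.79 in siG9a, and 7.83 and 7.54 in siGLP, higher on every knockdown array (0.62 and 0.54, limma adjusted p = 0.204 and 0.338). The log2 of the summed linear signals of the 3 leukocyte markers, mostly Cd68, was 7.28 to 7.44 in control. It was 7.84 to 7.97 in siG9a and 7.72 to 7.98 in siGLP, while Ptprc stayed at 2.73 to 2.93. The part of these markers in the histone differences was not tested. In bulk RNA, fewer cells in S phase and less histone mRNA per cell cannot be told apart.

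H1 probe sets each match a single gene, and 3 of the 5 were below control in siG9a and 4 in siGLP, with class medians of -0.12 and -0.095. The siG9a median was -0.052 without siG9a 1 and -0.063 without control 1, and the siGLP median was -0.012 without siGLP 2 and -0.15 without control 2. H1f5, a replication-dependent linker histone, read 11.84 and 11.88 on the control arrays, 11.65, 11.72 and 11.62 on the siG9a arrays, and 11.63 and 11.76 on the siGLP arrays. Both control arrays were above every knockdown array, with log2 differences of -0.20 (SE 0.07, adjusted p = 0.483) for siG9a and -0.16 (SE 0.08, adjusted p = 0.712) for siGLP. H1f1 had the smallest p of all members in siG9a. Its signals were 5.45 and 5.30 in control, 5.10, 4.96 and 4.73 in siG9a, and 5.23 and 5.14 in siGLP. The 3 siG9a arrays were the lowest, 1.36-fold below control (log2 difference -0.45, SE 0.12, limma adjusted p = 0.342), and siGLP lay between the other groups. H1f2, in contrast, overlapped between groups, reading 9.58 and 9.60 in control, 9.62, 9.58 and 9.70 in siG9a, and 9.58 and 9.46 in siGLP. The testis-type H1f6 was dim, at 3.07 and 3.41 in control, 3.39, 3.30 and 3.39 in siG9a, and 3.60 and 3.34 in siGLP, with overlap (0.12 and 0.23), and H1f3 ranged from 6.28 to 6.59 with overlap in every comparison.

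Among the 20 H2A probe sets, class medians were -0.045 in siG9a and -0.043 in siGLP, and -0.014 between the knockdowns. The siG9a median was -0.012 without siG9a 1, and the siGLP median was -0.025 without control 2. The probe set of H2ac10 alone had the smallest p of the class in both comparisons with control. H2ac10 read 10.41 and 10.35 on the control arrays, 10.17, 10.24 and 10.22 on the siG9a arrays, and 10.16 and 10.19 on the siGLP arrays. Replicates were tight (within-group SD 0.034) and both control arrays were the highest, by 1.12-fold over siG9a (log2 difference -0.16, SE 0.06, adjusted p = 0.513) and 1.15-fold over siGLP (-0.20, SE 0.07, adjusted p = 0.547). A pair of probe sets with identical values, which matches H2ac10 and 11 other H2A genes, read 11.63 and 11.63 in control, 11.47, 11.57 and 11.56 in siG9a, and 11.53 and 11.57 in siGLP. Control was again the highest group, by smaller differences of -0.10 and -0.09, and here siG9a rather than siGLP had the lower mean. The largest positive differences of the class from control were in probe sets that match H2ac23 and 9 other H2A genes. In siG9a it was 17285838, a dim set at 2.72 and 2.59 in control, 2.73, 2.74 and 3.03 in siG9a, and 3.02 and 2.63 in siGLP (0.18 in siG9a, SE 0.15, adjusted p = 0.764). In siGLP it was 17285677, at 4.62 and 4.27, then 4.30, 4.53 and 4.85, then 5.52 and 4.24, where siGLP 1 alone was high (0.44, SE 0.40, adjusted p = 0.856). H2ac4 and 9 other genes (17285867) had the largest negative difference between the knockdowns, -0.22 (SE 0.12, adjusted p = 0.577). It read 9.24 and 9.43 in control, 9.31, 9.52 and 9.32 in siG9a, and 9.01 and 9.32 in siGLP, with overlap. H2ac20 was lowest on array siGLP 1, with 8.72 and 8.89 in control, 8.51, 8.86 and 8.76 in siG9a, and 8.36 and 8.69 in siGLP. H2ac1, a testis-type H2A, read 4.50 on siG9a 3 and 4.86 to 5.21 elsewhere, and its siG9a difference of -0.30 (SE 0.19) was -0.11 without that array.

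H2B held both very steady members and the most variable one. Class medians were 0.024 in siG9a and 0.0087 in siGLP. Their sign was not stable: they were -0.019 without siG9a 3 and -0.011 without siGLP 1. The brightest probe set, of H2bc6 and 11 other genes (17285691), overlapped between groups at 12.47 and 12.41 in control, 12.34, 12.42 and 12.36 in siG9a, and 12.38 and 12.42 in siGLP (-0.07 and -0.04, adjusted p = 0.8 and 0.93). The probe set of H2bc13 and 3 other H2B genes (17290997) read 12.36 and 12.29 in control, 12.19, 12.26 and 12.20 in siG9a, and 12.24 and 12.23 in siGLP, with control highest by 0.11 and 0.09 (adjusted p = 0.677 and 0.826). H2bc12 read 8.03 and 7.86 in control, 7.77, 7.81 and 7.69 in siG9a, and 7.85 on each siGLP array. H2bc3 read 7.02 and 7.04 in control, 6.78, 6.87 and 6.87 in siG9a, and 6.82 and 6.99 in siGLP. H2bc21 of the Hist2 cluster, lowest in siGLP relative to siG9a (-0.32, SE 0.26, adjusted p = 0.701), read 4.95 and 4.01 in control, 4.88, 4.62 and 4.87 in siG9a, and 4.40 and 4.55 in siGLP. In H2bc12 and H2bc3 control was the highest group, and the log2 difference of siG9a was -0.19 (SE 0.08, adjusted p = 0.553 and 0.543).

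H2bc9 went the other way and had the smallest p of all members in siGLP versus control and in siGLP versus siG9a. It read 5.23 and 5.49 in control, 5.49, 5.43 and 5.66 in siG9a, and 5.92 and 5.95 in siGLP. Both siGLP arrays were above the 5 others. The siGLP level was 1.49-fold that of control (log2 difference 0.57, SE 0.11, limma adjusted p = 0.294) and 1.33-fold that of siG9a (0.41, SE 0.10, adjusted p = 0.249). With any 1 array left out the first difference stayed between 0.44 and 0.70. In siG9a the difference from control was 0.17 (SE 0.10), and the groups overlapped.

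Probe sets that match exactly the same genes could disagree. H2bc4, H2bc6 and H2bc8 are matched by 2 probe sets. The first (17285851) read 9.29 and 9.38 in control, 8.89, 8.92 and 9.35 in siG9a, and 8.74 and 8.74 in siGLP, a siGLP difference of -0.59 (SE 0.16, limma adjusted p = 0.42). The second (17285834) read 8.54 and 8.05 in control, 8.62, 7.88 and 9.25 in siG9a, and 9.49 and 8.25 in siGLP, a difference of 0.58 (SE 0.53, adjusted p = 0.856). The 2 readings of the same genes thus pointed in opposite directions, and the replicates of the second spread far more widely (within-group SD 0.68 against 0.18). H2bc7, H2bc11, H2bc13 and H2bc15 are matched by 3 probe sets, among them the bright 17290997 above. Their siGLP differences ran from -0.091 to 1.35 and their within-group SDs from 0.037 to 1.17.

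The H3 class had the largest medians, 0.27 in siGLP versus control and 0.27 in siGLP versus siG9a, with 0.027 in siG9a versus control. The siGLP value depended on array siGLP 1. Class medians by array were 4.60 and 4.40 in control, 4.60, 4.63 and 4.67 in siG9a, 5.34 on siGLP 1 and 4.48 on siGLP 2. Without siGLP 1 the H3 median of siGLP versus control was -0.052, and without siGLP 2 it was 0.65. The control arrays moved it too, to 0.068 without control 2 and 0.43 without control 1, and that of siGLP versus siG9a was 0.021 without siG9a 2. Array siGLP 1 was the highest of the 7 for 8 of the 12 H3 probe sets.

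Of the 12 H3 probe sets, 8 match the same 8 genes (H3c2, H3c3, H3c4, H3c6, H3c7, H3c13, H3c14 and H3c15). Their within-group SDs ran from 0.047 to 0.93 and their siGLP differences from -0.10 to 0.79. The steadiest, 17400555, read 8.62 and 8.60 in control, 8.62, 8.66 and 8.62 in siG9a, and 8.74 and 8.62 in siGLP. A dimmer one, 17400559, read 4.19 and 3.95 in control, 4.60, 4.71 and 4.68 in siG9a, and 4.95 and 4.39 in siGLP. Here both control arrays were the lowest, with differences of 0.59 for siG9a (SE 0.17, limma adjusted p = 0.361) and 0.61 for siGLP (SE 0.18, adjusted p = 0.486). The largest siGLP difference of the class was in 17285871, at 3.58 and 3.86 in control, 4.36, 3.79 and 3.96 in siG9a, and 4.93 and 4.08 in siGLP (0.79, SE 0.30, adjusted p = 0.605). The largest negative siG9a difference of all members was in 17291233, which matches H3c1, H3c8, H3c10 and H3c11. It read 3.82 and 3.46 in control, 3.08, 2.22 and 3.41 in siG9a, and 3.59 and 3.16 in siGLP (-0.74, SE 0.34, adjusted p = 0.594), and array siG9a 2 was far below the others. A bright probe set of the same 4 genes, 17285680, read 7.95 and 7.91 in control, 7.98, 8.43 and 8.01 in siG9a, and 7.51 and 8.07 in siGLP. Here siG9a was above control on every array (0.21, SE 0.20, adjusted p = 0.799), so the 2 readings of these genes differed in sign for siG9a. The largest difference of the class between the knockdowns was in 17291222, of H3c13 and 7 others, at 4.50 and 4.11 in control, 4.02, 3.85 and 4.31 in siG9a, and 5.43 and 4.21 in siGLP (0.76, SE 0.35, adjusted p = 0.509).

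H4 medians were -0.015 in siG9a and -0.0030 in siGLP. The siGLP median was -0.18 without siGLP 1 and 0.17 without siGLP 2, and that of siGLP versus siG9a (-0.011) was -0.26 and 0.15. H4c12, a gene with a probe set of its own, was among the steadiest members, at 10.86 and 10.78 in control, 10.84, 10.86 and 10.89 in siG9a, and 10.83 and 10.86 in siGLP. All its arrays lay within 1.08-fold of each other. H4c9 read 4.89 and 4.73 in control, 5.25, 4.83 and 5.30 in siG9a, and 5.12 and 5.04 in siGLP, differences of 0.32 (SE 0.15, adjusted p = 0.596) and 0.27 (SE 0.16, adjusted p = 0.786). H4c8 had the largest negative siGLP difference (-0.26, SE 0.20, adjusted p = 0.832), at 4.15 and 3.97 in control, 4.07, 3.87 and 3.62 in siG9a, and 4.05 and 3.55 in siGLP, with overlap. H4c17 and 12 other H4 genes are matched by several probe sets. One of them (17285846) had the largest negative siG9a difference of the class and the largest positive one between the knockdowns, at 4.43 and 3.75 in control, 3.81, 2.78 and 4.11 in siG9a, and 4.74 and 3.26 in siGLP (-0.53, SE 0.53, and 0.44, SE 0.53). Another (17291019) read 4.95 on each control array, 5.004, 5.10 and 4.75 in siG9a, and 4.95 and 4.43 in siGLP (-0.26 between the knockdowns, SE 0.17). H4f16, the only gene of the Hist4 cluster, has 2 probe sets of its own that differed in their pattern. One (17548561) read 9.20 and 9.41 in control, 9.02, 9.37 and 9.16 in siG9a, and 8.93 and 9.31 in siGLP, lowest on siGLP 1. The other (17472159) read 5.53 and 5.10 in control, 5.73, 5.02 and 5.75 in siG9a, and 6.27 and 5.20 in siGLP, highest on siGLP 1.

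By cluster, median differences of siG9a and siGLP from control were -0.020 and -0.042 in the 45 probe sets of Hist1 alone, -0.028 and -0.0099 in the 8 of Hist2, 0.024 and 0.078 in the 3 of Hist3, and 0.031 and 0.12 in the 2 of Hist4. The other probe sets match genes of more than 1 cluster.

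The spread between replicate arrays was wide for part of the family. The within-group SD of a probe set pools the deviations from its 3 group means. This SD exceeded 0.28, the 95th percentile of all probe sets, in 18 of 70 members, against 5% of all probe sets by construction. The 18 were 6 of 12 H3, 5 of 14 H4, 4 of 18 H2B, 2 of 20 H2A and the mixed probe set, and 0 of 5 H1. Class medians of this SD were 0.32 for H3 and 0.21 for H4, but 0.12 for H1, 0.10 for H2B and 0.095 for H2A, beside 0.11 for all probe sets. Of the 18, 12 match several genes. No test was made of this share.

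**Figure D2:**
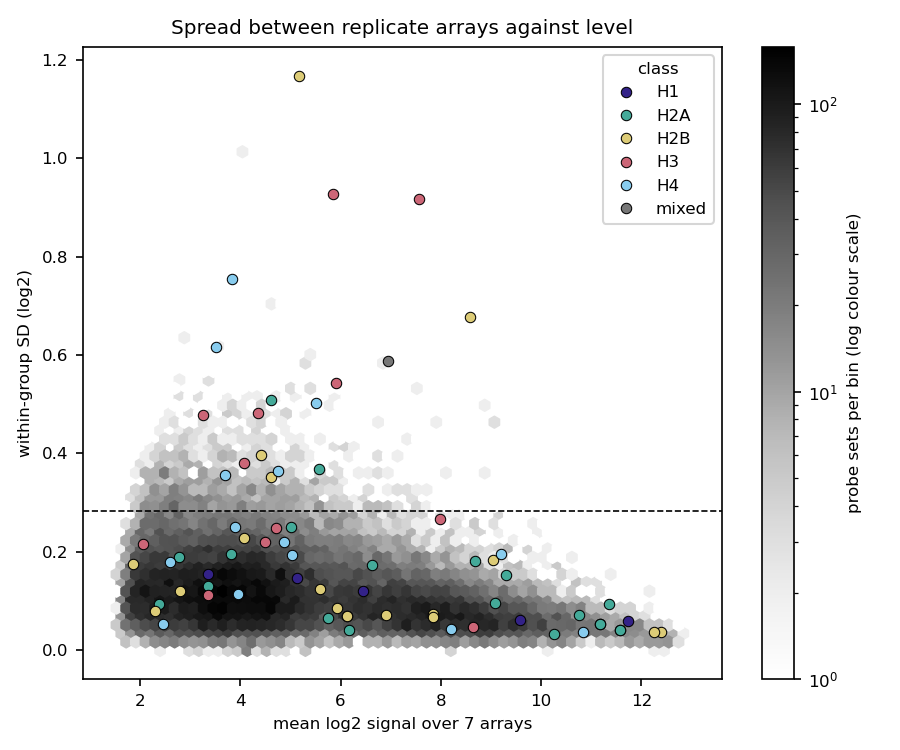
Within-group SD (y axis, log2) against mean log2 signal over the 7 arrays (x axis), for all probe sets (grey, darker where more fall) and the 70 histone probe sets (points coloured by class); the dashed line is the 95th percentile of all probe sets, 0.28. Histone points above the line are mostly H3, H4 and H2B, while bright H1, H2A and H2B points lie among the lowest SDs.

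The probe set of H2bc15 and 3 other H2B genes (17285746) had the highest within-group SD of all 33649 probe sets, 1.17. It read 5.20 and 3.87 in control, 5.69, 3.82 and 5.79 in siG9a, and 6.90 and 4.86 in siGLP. Arrays of 1 group differed by as much as 4.13-fold (siGLP 1 over siGLP 2), and the siGLP difference from control of 1.35 had an SE of 0.90 (limma adjusted p = 0.805). An H3 probe set matching H3c15 and 7 others (17408015) read 6.37 and 5.05 in control, 6.54, 4.76 and 5.92 in siG9a, and 6.84 and 5.47 in siGLP. Another with the same genes (17291183) read 7.95 and 6.90, then 7.98, 6.75 and 7.82, then 8.73 and 6.76. In all 3 the arrays control 2, siG9a 2 and siGLP 2 were the lowest of their groups, siGLP 1 was the highest array, and the groups overlapped. The SEs treat arrays as unpaired, although deviations of same-numbered arrays correlated at 0.66 to 0.75 over the histone probe sets. A limit of these correlations and the differences within a number are given in the last paragraph.

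**Figure D3:**
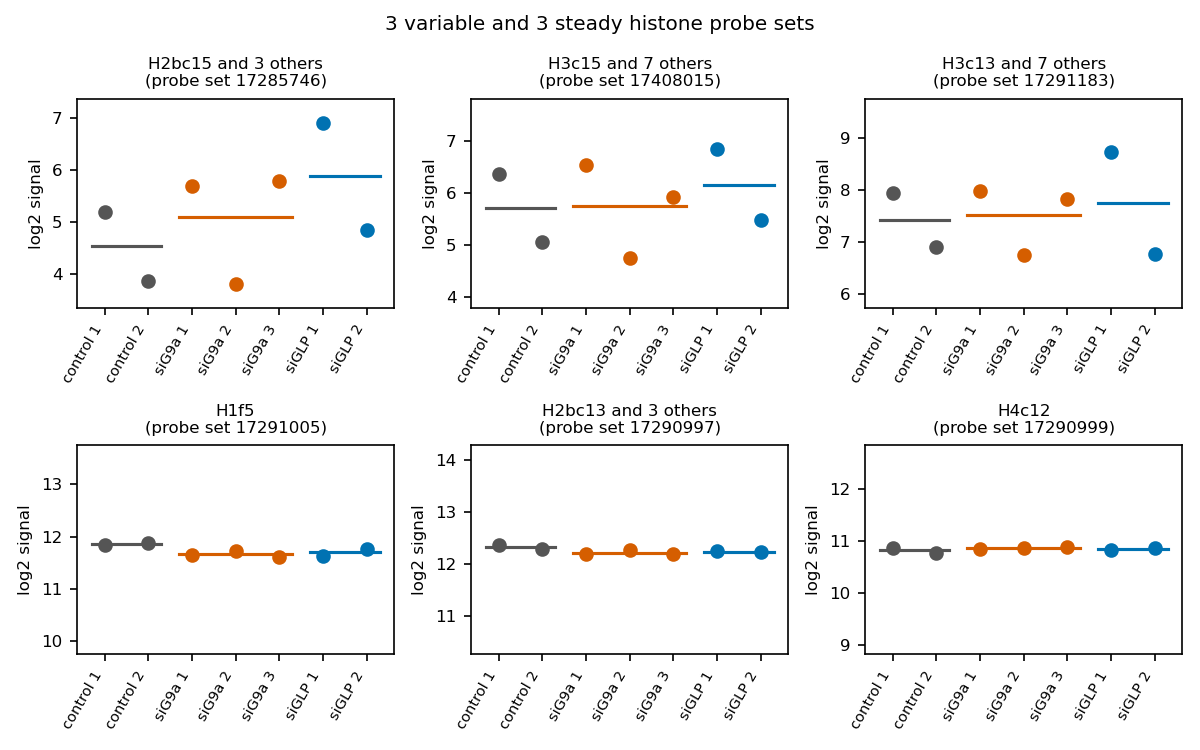
Log2 signal (y axis, 4 units high in each panel) on each array (x axis) for 3 probe sets with a wide spread (top) and 3 steady ones (bottom); points are arrays coloured by group and horizontal lines are group means. In the top panels control 2, siG9a 2 and siGLP 2 sit below their group means, while H1f5, the H2bc13 set and H4c12 stay nearly level.

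The same arrays stood out over the 18 variable members, which include the 3 probe sets just described. Array siGLP 1 was the highest of the 7 for 14 of the 18 variable histone probe sets, against 17.6% of all 1683 probe sets with an SD this large. Array siG9a 2 was the lowest for 11 of the 18, against 14.5%. The array numbered 1 was above the array numbered 2 in all 3 groups for 21 of 70 members (30%), against 12.4% of all probe sets, and below it in all 3 for 8 (11.4%, against 13.7%). By class the first count was 7 of 14 H4, 6 of 12 H3, 4 of 18 H2B, 2 of 20 H2A and 1 of 5 H1. The bright members leaned the other way. Of the 26 above the upper quartile of level, number 1 was above number 2 in all 3 groups for 3. That is 11.5%, against 16.9% of all probe sets this bright. It was below number 2 in all 3 groups for 8 of the 26 (30.8%, against 19.2%). Ranked by the mean of the 3 differences, 17285746, 17408015 and 17291183 held ranks 1, 2 and 3 of all 33649 probe sets (1.75, 1.49 and 1.41). The labels do not say what a number marks, and what lies behind this spread was not tested. Fabp4 was also highest on siGLP 1. Through it the log2 of the summed linear signals of the 4 adipocyte markers was 7.04 there and 6.21 on siGLP 2. It was 5.90 to 5.97 in control and 5.99 to 6.11 in siG9a. Plin1 was highest on siG9a 2 (5.01) and Cidec on control 2 (4.04). The part of these markers in the spread was not tested.

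**Figure D4:**
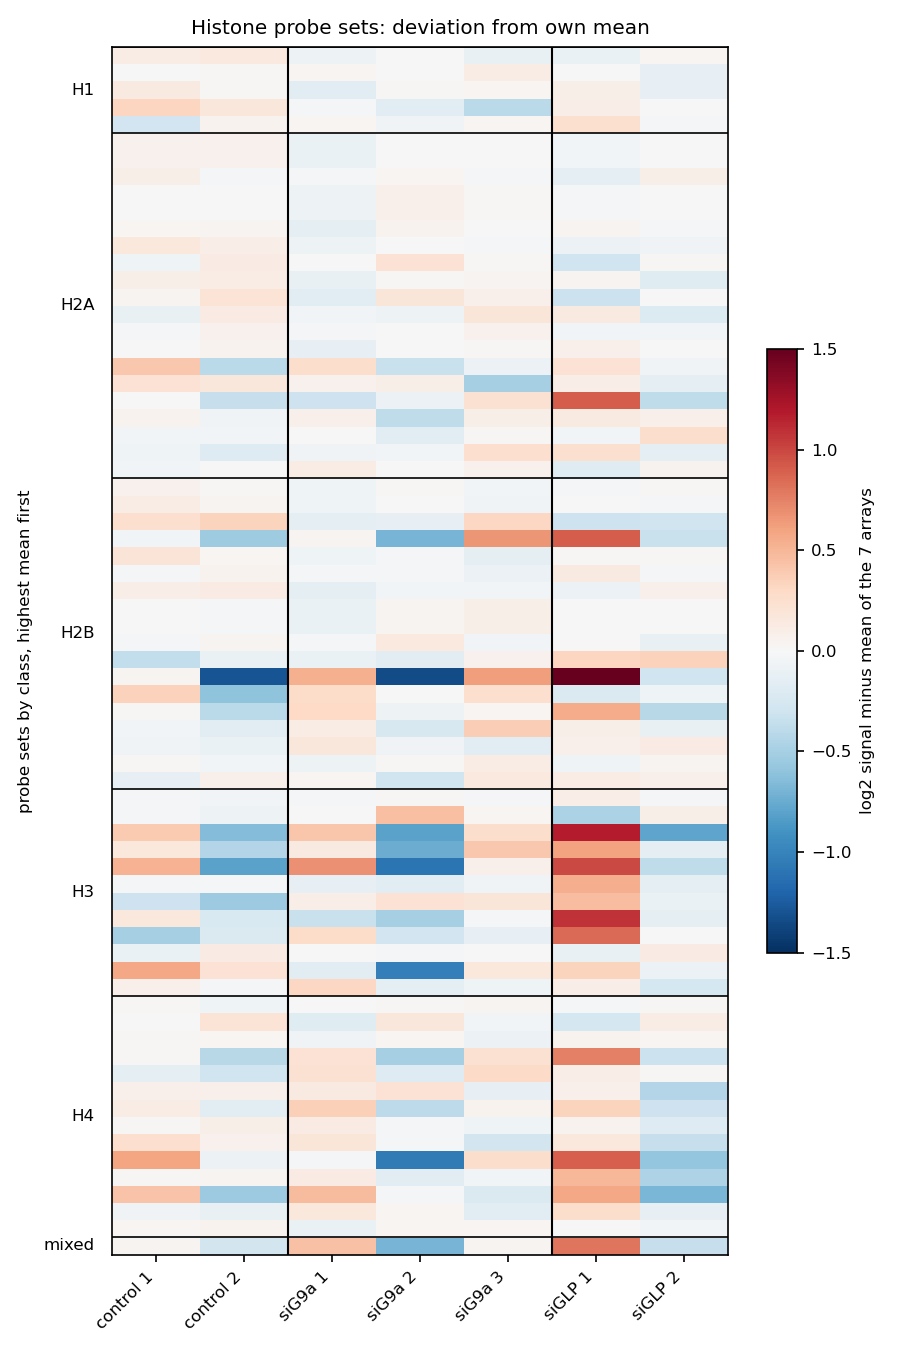
Log2 signal of each histone probe set (rows, by class, highest mean first) on each array (columns) minus the probe set's own mean of the 7 arrays; colours stop at 1.5 in either direction. Column siGLP 1 is red and columns control 2, siG9a 2 and siGLP 2 are blue in many H3 and H4 rows, whereas most H1 and H2A rows stay pale.

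For genes outside the family, the mean of the 47 histone probe sets above the median level was 7.86 and 7.70 in control, 7.81, 7.66 and 7.84 in siG9a, and 7.95 and 7.69 in siGLP. Over the 7 arrays the named genes most like it, of 23489 searched, were Pawr (Pearson r = 0.969), Mug1 (0.966), Stap1 (0.964), Vps13a (0.953) and Pelo (0.949). Mug1 (2.839 to 3.347) and Stap1 (2.533 to 2.675) were dim, below the lower quartile of level (3.349) on every array. Pawr read 6.10 and 5.67 in control, 5.90, 5.49 and 5.84 in siG9a, and 6.31 and 5.60 in siGLP, again lowest in each group on the array numbered 2. With 7 arrays and so many genes searched, such values describe likeness on these arrays only.

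Genes that serve histone supply were read from lists written for this purpose, and 0 members of any list passed the test in any comparison. For transcription and 3′ end processing of histone mRNA, 14 of 25 measured genes were below control in siG9a (median -0.0045) and 13 in siGLP (-0.015). Slbp read 9.00 and 9.11 in control, 9.20, 9.16 and 9.20 in siG9a, and 9.03 and 9.09 in siGLP, so the siG9a arrays were slightly the highest (0.13, SE 0.07, limma adjusted p = 0.634). Npat overlapped between groups, at 7.58 to 7.83 on the 7 arrays. Tut7, a uridylyltransferase of RNA decay, had the smallest p of the list in siG9a (0.28, SE 0.09, adjusted p = 0.448).

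The replication-independent histone variants are also transcribed outside S phase, and of 26 listed 11 were measured by a probe set of 1 gene. Below control were 7 of the 11 in siG9a (median -0.024) and 5 in siGLP (0.020). H2ax, the variant phosphorylated at DNA breaks, was steady at 11.02 and 11.02 in control, 10.99, 10.96 and 10.91 in siG9a, and 10.98 and 10.97 in siGLP. H2az1 varied between replicates, with 5.27 on siG9a 1 and 5.20 on siGLP 1 against 5.71 to 5.96 elsewhere.

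Histone chaperones and DNA replication genes were mostly below control in siG9a, at sizes that did not pass the test. Among chaperones 20 of 25 were below control in siG9a (median -0.096) and 14 of 25 in siGLP (-0.0091). Dnajc9, a co-chaperone of H3 and H4, read 9.58 and 9.56 in control, 8.85, 8.92 and 8.65 in siG9a, and 9.64 and 9.73 in siGLP. Only the siG9a arrays were low, by -0.76 (SE 0.09, limma adjusted p = 0.119). Nasp, another H3 and H4 chaperone, was -0.25 in siG9a (SE 0.06, adjusted p = 0.321) and -0.22 in siGLP. Of 43 DNA replication and S phase genes 38 were below control in siG9a (median -0.12) and 21 in siGLP (0.0041). All siG9a arrays lay below both control arrays in 26 of the 43, against 11% of all probe sets and 19.7% of those above the upper quartile of level, where all 43 lie. Examples are Dscc1 of a clamp loader (-0.42, SE 0.08, adjusted p = 0.214) and the kinase gene Cdk2 (-0.40, SE 0.09, adjusted p = 0.292). Of 7 CDK inhibitors 5 were above control in siG9a (median 0.070) and 5 below it in siGLP (-0.099). Cdkn1a (p21) was 11.34 and 11.25 in control, 11.64, 11.58 and 11.64 in siG9a, and 11.60 and 11.48 in siGLP (0.33 in siG9a, SE 0.07, adjusted p = 0.262, and 0.24 in siGLP). The lists were chosen with earlier results of these arrays known, so these counts are no independent support for a direction.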

How the data were processed

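RNA of 7 C2C12 samples was hybridised to 1 array each, labelled from 100 ng of total RNA. The authors deposited log2 signals per probe set. RMA and Partek are named, with no version, in the submitters' processing notes. RMA normalizes quantiles between arrays, so differences are relative to the bulk of transcripts. That the scale is log2 follows from the value range, and 0 columns belonged to other series.

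Members were found through older RefSeq symbols of the genes on the platform's annotation, and no filter on level was applied. Tests used limma 3.58.1 and R 4.3.3 (lmFit and eBayes, 7 arrays in 1 fit, 1 mean per group, 4 residual degrees of freedom, 6.71 with moderation), two-sided, with Benjamini-Hochberg adjustment over all 33649 probe sets and a threshold of 0.05. Only the limma fit was tested on simulated data. Tied highest or lowest arrays counted for the first. Probe sets described by array were the 2 brightest of each class, the largest rise and fall of each class, the smallest p-values, and others chosen after their values were seen (the variable probe sets and those that share genes). From each list up to 4 genes with the smallest p could be named, and Slbp, Npat and H2ax were named for their roles. Members and lists were chosen with earlier results of these data known. Scanner files were not used here. The number of arrays limits precision. Alternatives were normalization, centring, a level filter, 1 probe set per gene, variance moderation, the samples fitted, the replicate number as a block and leaving out each array.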

Additional observations from a re-analysis of the deposited data

How the results depend on the processing

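Over 14 other settings (7 of them leaving out 1 array), 0 histone probe sets passed the threshold in any comparison. Of 1575 recomputed values, 743 (other settings) and 758 (arrays left out) were judged the same. They kept direction and side, were counts that stayed equal or close, or were class medians that moved less than the spread between replicates. Signs changed in 3 and 22, and counts or medians moved in 16 and 18. In other settings 6 values came to pass the threshold and 2 no longer passed. With arrays left out 7 no longer passed. None of these that crossed the threshold was a histone probe set. Part of the sameness was fixed beforehand. Variance moderation and fitting only 2 groups leave every difference as it is. Leaving out an array of a group not compared does the same. Counts over the whole table moved more. In siG9a versus control they were 0 as reported, 2 after another quantile normalization, 36 without probe sets below the median level, 6 with 1 probe set per gene and 51 with trended and robust moderation. In siGLP versus control (3) they were 1 with 1 probe set per gene, 14 with trended moderation and 0 with only 2 groups fitted. In siGLP versus siG9a (16) they were 203 with the level filter, 52 with 1 probe set per gene, 187 with trended moderation and 0 with 2 groups fitted. Leaving out 1 array gave 0 in every comparison. The cause was not tested. The H2B median of siGLP versus control was 0.10 with 1 probe set per gene and 0.12 as a mean, and that of siGLP versus siG9a 0.094 with 1 per gene, a setting that left no H3 probe set.

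With 1 array left out, the H3 median ran from -0.052 to 0.65 in siGLP versus control and from -0.053 to 0.66 in siGLP versus siG9a. Only chosen probe sets were recomputed singly, each in chosen comparisons, so sign changes of other members are not listed here. Among those recomputed, differences that changed sign ran, in siG9a versus control, from -0.049 to 0.29 for H1f6, -0.10 to 1.23 for 17285746, -0.43 to 0.61 for 17291183, -0.042 to 0.64 for 17285834 and -0.63 to 0.69 for 17408015. In siGLP versus control they ran from -0.21 to 1.08 for 17285677, -0.42 to 0.14 for 17285680, -0.017 to 0.068 for H4c12, -0.66 to 1.31 for 17291183, -0.043 to 1.20 for 17285834, -0.24 to 1.13 for 17408015, -0.12 to 0.95 for 17472159 and -0.37 to 0.0022 for 17548561. In siGLP versus siG9a they ran from -0.32 to 0.96 for 17285677, -0.24 to 1.80 for 17285746 and -0.30 to 1.17 for 17285846.

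The labels give the groups the same replicate numbers. Over all probe sets the deviations of same-numbered arrays correlated at 0.0050 to 0.14, not above 0.1 in every pair, so the numbers were not taken as pairs. With the replicate number as a block, 0 probe sets passed in siGLP versus control and 0 in siGLP versus siG9a. The siG9a differences of 17291183, 17408015 and 17285834 turned to -0.060, -0.059 and -0.042. Number 3 occurs only in siG9a, so the block takes array siG9a 3 out of the comparison. Leaving that array out gave the same values, so they do not show an effect of pairing. Over the 70 histone probe sets the deviations of same-numbered arrays correlated at 0.66 to 0.75. Control and siGLP hold 2 arrays each, whose deviations are equal and opposite, so these correlations are not separate readings. The 70 also include probe sets that share genes or have identical values. Between arrays of the same number, siGLP minus control was 1.70 and 0.99 for 17285746, 0.47 and 0.42 for 17408015, and 0.78 and -0.14 for 17291183.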
